A study of Mus musculus with 12 samples.

Results

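Neurons carry their cargo on microtubules, and the 10 genes described here encode proteins that make up, bind or take apart those microtubules in dendrites and axons. They are Mtap1a, Mtap1b and Mtap2 (now named Map1a, Map1b and Map2), Mapt, Stmn1, Stmn2, Stmn3, Tubb3, Tubb2b and Dcx. The genes were chosen by name, from the role of their proteins and with earlier results of these data known, and each was matched by its Ensembl identifier in Gencode vM1 to 1 row of the count tables, so that 10 of 37310 genes are described. All 10 had enough counts to be tested in every comparison.

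The data come from circuit-specific translating ribosome affinity purification (TRAP), in which a GFP-tagged ribosomal protein, L10a, is switched on by Cre and pulled down with the mRNA on its ribosomes. Mice of a C57BL/6 strain carried the Cre-dependent GFP-L10a at Rosa26 and received retrograde HSV-Cre in nucleus accumbens (NAc), and ventral hippocampus (vHPC) was punched out 3 weeks later. WT mice had normal FosB alleles, and the mice labelled FosB KO were FosB fl/fl, so that by design Cre both tagged the ribosomes and removed FosB in the same NAc-projecting cells. Mice were pooled, 3 to a pool per the labels. Each TRAP library has a library of the whole punch (input) with the same number, and both were taken to come from the same pool. This makes 12 libraries in 4 groups of 3. The study's methods put the number of mice per pool at that of the labels or slightly above. Libraries whose titles lack the word input were taken as TRAP. The methods describe purchased C57Bl/6J males as young adults on arrival, and an age of the FosB fl/fl and GFP-L10a mice was not given in the sources used here. The WT pools are numbered 1, 2 and 3 and the KO pools 2, 3 and 4, and values below are given in that order.

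Microtubules are hollow tubes of α- and β-tubulin pairs that grow and shrink at their ends. Microtubule-associated proteins such as the Mtap1 proteins, Mtap2 and tau (Mapt) bind along the tube and stabilise it. Mtap2 is the classic marker of dendrites and cell bodies and tau that of axons, although both use closely related microtubule-binding repeats. Stathmins work the other way: they hold free tubulin pairs and favour shrinkage. Doublecortin (Dcx) stabilises microtubules in young migrating neurons and is used in hippocampus as a mark of newborn granule neurons.

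The members form 3 small families whose sequences bear on how their reads can be told apart and on which relatives moved apart in the data, and short stretches of their coding sequence are shown for that reason. All are from Gencode vM1 transcripts (mm9), 5′ to 3′ on the coding strand. The first pair is a 90-base stretch in which Mapt and Mtap2 are alike, which lies in the microtubule-binding repeats, with capitals where the pair differ. It shared the most bases among the stretches compared. These were in frame, without gaps, and matched exactly over a few bases at their start or near their middle.
Mapt: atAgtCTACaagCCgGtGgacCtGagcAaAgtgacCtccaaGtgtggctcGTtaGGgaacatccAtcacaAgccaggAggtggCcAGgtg
Mtap2: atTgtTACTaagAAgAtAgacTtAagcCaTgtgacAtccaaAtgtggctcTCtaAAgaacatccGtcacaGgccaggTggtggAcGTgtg
The pair share 65 of these 90 bases. The next 3 are the first 90 coding bases of the stathmins, with capitals on cysteine codons. Such cysteines near the start anchor Stmn2 and Stmn3 to membranes, and Stmn1, which is cytosolic, has none here.
Stmn1: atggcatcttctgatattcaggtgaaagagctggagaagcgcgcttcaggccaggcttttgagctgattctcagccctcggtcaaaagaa
Stmn2: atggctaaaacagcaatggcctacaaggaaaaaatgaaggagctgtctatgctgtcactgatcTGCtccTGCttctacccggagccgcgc
Stmn3: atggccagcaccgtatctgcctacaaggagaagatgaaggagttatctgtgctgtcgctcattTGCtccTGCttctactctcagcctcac
The last 3 are the final 90 coding bases of β-tubulins, which encode the acidic tail in which tubulin isotypes differ most. Tubb2a, the closest relative of Tubb2b, is included for that reason. Capitals mark bases of Tubb3 and Tubb2b that differ from the other member or have no aligned partner in it, and bases that differ from Tubb2b in Tubb2a.
Tubb3: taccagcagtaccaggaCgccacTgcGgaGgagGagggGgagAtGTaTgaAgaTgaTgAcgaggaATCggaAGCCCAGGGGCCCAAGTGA
Tubb2b: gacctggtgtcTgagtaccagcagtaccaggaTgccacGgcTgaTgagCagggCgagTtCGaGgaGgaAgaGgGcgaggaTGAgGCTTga
Tubb2a: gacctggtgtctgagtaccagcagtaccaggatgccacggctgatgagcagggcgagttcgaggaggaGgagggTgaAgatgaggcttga
Only 3 bases of the Tubb2a tail are in capitals. Over the whole coding sequence, Tubb2b and Tubb2a were 96.5% identical and Tubb3 and Tubb2b 84.5%, while the stathmins were 69.9% to 75.8% identical to each other.

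This likeness matters because the authors set aside reads with more than 1 alignment. Exons of each member were divided into stretches of 75 bases, and each was searched for in the rest of mm9 allowing 2 mismatches. For Tubb2b, 77.6% of stretches had another place, in Tubb2a among others, for Stmn1 37.9%, mostly in the annotated copy Gm11223, and for Tubb3 32.3%. The other 7 members had none. Levels of Tubb2b, Stmn1 and Tubb3 are therefore uncertain, since reads from such stretches were dropped or could be placed on a copy.

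Depth was 3416030 to 5614089 counts on genes per library, and 3 counts, taken as the floor of detection, were worth 0.534 to 0.878 CPM (counts scaled to a common library total). The member with the fewest counts, Dcx, had 52 to 182 per library, so all members were detected in all libraries. Fosb itself had 45.3, 32.0 and 40.2 CPM in WT TRAP libraries and 29.4, 18.8 and 21.5 in KO TRAP libraries, without overlap, a log2 fold change of -0.76 ± 0.21 (SE, n = 3 per group; edgeR quasi-likelihood test, Benjamini-Hochberg adjusted p = 0.337), so the gene-level count was in the direction of its label but did not pass the test. It was lower to a like degree in the input libraries, at 30.3, 22.3 and 24.5 CPM in WT and 17.1, 16.0 and 14.9 in KO, also without overlap (-0.68 ± 0.22, SE; edgeR, unadjusted p = 0.00557, adjusted p = 1.00), and the KO effect on Fosb differed between TRAP and input by -0.08 ± 0.30 (SE; edgeR interaction, unadjusted p = 0.791). Mitochondrial genes took 5.29% to 9.05% of counts in input and 0.0305% to 0.130% in TRAP. WT input 1 stood apart from the other input libraries with 15678 genes detected, against 17255 to 18090. It also had the fewest counts of all libraries (3416030) and the lowest mitochondrial share among input libraries (5.29%).

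Cell type markers moved strongly between TRAP and input. In TRAP, 12 of 12 astrocyte markers were lower, with a summed level of 353 to 425 CPM against 2154 to 2585 CPM in input, as were 13 of 14 oligodendrocyte lineage markers (179 to 245 against 791 to 1242 CPM) and 10 of 10 microglia markers (9.43 to 25.3 against 106 to 217 CPM). The remaining oligodendrocyte lineage marker, Cspg4, was higher. Of 8 endothelial markers, summing to 1.78 to 8.67 CPM in TRAP, only 3 could be tested and 2 were lower; Tek and Ly6c1 were at 0 in all TRAP libraries. For GABA neurons, 9 of 10 markers were lower (182 to 653 against 881 to 1045 CPM), with Sst not called, and for glutamate neurons 5 of 9 were higher and none lower (8187 to 9744 against 6349 to 7300 CPM). The tissue label reads hippocampus neurons, and the defining markers of glutamate neurons were present in all libraries. Input libraries thus held more RNA of glial and inhibitory marker genes than TRAP libraries did, and in such bulk samples fewer cells of a type and less RNA per cell cannot be told apart.

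Per kb of annotated exon, the only scale on which levels of different genes are compared here, Stmn3 stood highest and Dcx lowest in each of the 4 groups. In WT TRAP, Stmn3 was at 795 ± 67.7 CPM per kb (mean ± SD, n = 3), followed by Stmn2 at 311 ± 41.6 and Mtap1b at 276 ± 22.9, whose ranges overlapped. Tubb3 (187 ± 18.0), Stmn1 (159 ± 35.8) and Mtap1a (149 ± 9.57) overlapped each with the next. Mtap2 (91.5 ± 7.21), Mapt (80.6 ± 4.48), Tubb2b (29.8 ± 8.09) and Dcx (1.40 ± 0.610) followed without overlap. The order in WT input was different: Stmn3 (462 ± 17.4 CPM per kb), Mtap1b (387 ± 19.3), Mtap1a (235 ± 13.3), Stmn2 (212 ± 9.01) and Mtap2 (176 ± 15.7), with only Mtap2, Stmn1 (133 ± 28.1) and Tubb3 (120 ± 10.0) overlapping a neighbour. In KO input the ranges of Stmn3 and Mtap1b overlapped. The KO groups had the same members at the first and the last 3 places as the WT groups. Exon length is the union over all annotated transcripts, which lowers the value of genes with many long variants such as Mtap2.

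**Figure D1:**
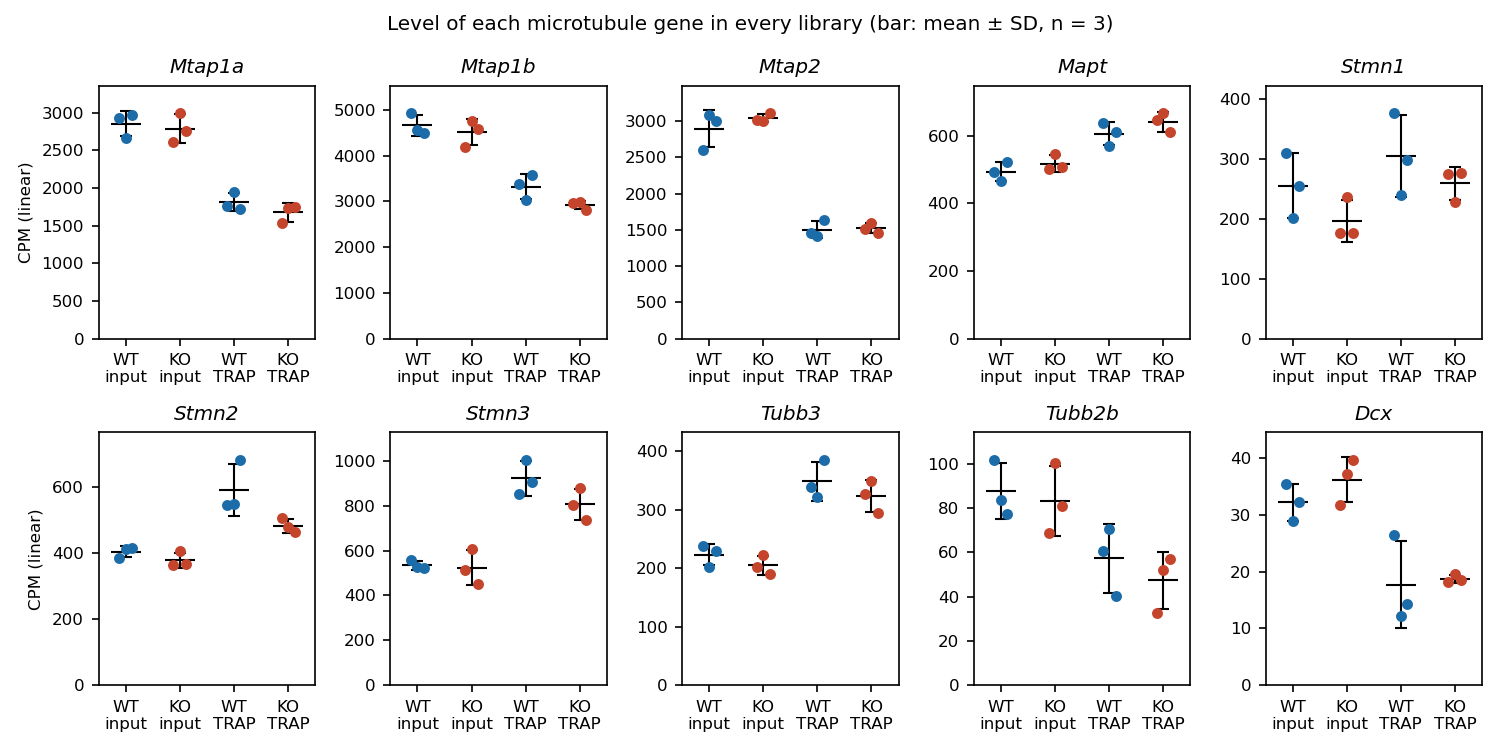
Level of each of the 10 genes in CPM (linear axes that start at 0) in the 3 libraries of each group, WT in blue and KO in red, with mean ± SD. Mtap1a, Mtap1b, Mtap2 and Dcx were lower in every TRAP library than in every input library, and Mapt, Stmn2, Stmn3 and Tubb3 were higher in every TRAP library.

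The comparison of TRAP with input asks how the mRNA on ribosomes of NAc-projecting cells differs from that of the whole punch. Over both genotypes, 4 of the 10 members were called higher in TRAP (Mapt, Stmn2, Stmn3, Tubb3) at an adjusted p under 0.05, where 19.6% of the 13214 genes tested were called higher, and 5 were called lower (Mtap1a, Mtap1b, Mtap2, Tubb2b, Dcx), where 22.5% were. TRAP and input libraries did not overlap for 8 of the 10, against 22.5% of all genes. The members' median log2 fold change was -0.13 and that of all genes -0.01, so the genes did not shift together but split into a higher and a lower set.

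The large structural proteins were lower in TRAP. Mtap2, the dendritic marker (ENSMUSG00000015222.10, chromosome 1 from 66221847 to 66489157, plus strand, mm9), had 2603, 3092 and 2997 CPM in WT input and 3013, 3009 and 3113 in KO input. It had 1457, 1417 and 1639.7 CPM in WT TRAP and 1517, 1592 and 1458 in KO TRAP. All 6 TRAP libraries were thus far below the lowest input library, and Mtap2 fell by 0.97 on the log2 scale (SE 0.058; edgeR quasi-likelihood test, Benjamini-Hochberg adjusted p = 2.47e-13), to 0.510 of its input level, the lowest ratio among the members. Within pools the log2 ratio of TRAP to input ran from -1.12 to -0.84, lower in 6 of 6 pools (exact sign-flip test, two-sided, p = 0.0312, the smallest that 6 pools can give).

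Mtap1a and Mtap1b encode long precursors that are cut into heavy and light chains, with Mtap1b prominent in growing axons and Mtap1a in mature neurons. Mtap1a (ENSMUSG00000027254.7, chromosome 2 from 121115336 to 121136568, plus strand) had 2931, 2668 and 2962 CPM in WT input, 2614, 2993 and 2752 in KO input, 1759.7, 1942 and 1726 in WT TRAP and 1533, 1737 and 1751 in KO TRAP. Mtap1b (ENSMUSG00000052727.4, chromosome 13 from 100191419 to 100286557, minus strand) had 4936, 4562 and 4507 CPM in WT input, 4202, 4771 and 4588 in KO input, 3379, 3029 and 3575 in WT TRAP and 2965, 2991 and 2811 in KO TRAP. Neither gene's groups overlapped, and every TRAP library was below every input library. Mtap1a fell by 0.70 (SE 0.058, adjusted p = 2.22e-10) and Mtap1b by 0.56 (SE 0.055, adjusted p = 4.1e-09) on the log2 scale, by the same edgeR test. A stretch of 272 bases, 2.24% of the Mtap1a exons, overlaps Ppip5k1 on the other strand, as 124 bases (0.754%) of the Mtap2 exons do the lincRNA gene Gm10558, and whether the counting used strand was not given in the sources used here.

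Tau went the other way. Mapt (ENSMUSG00000018411.10, chromosome 11 from 104092704 to 104193404, plus strand) had 492, 467 and 524 CPM in WT input and 502, 546 and 507 in KO input, and 637, 570.5 and 613 in WT TRAP and 647, 668 and 611 in KO TRAP. The lowest TRAP library was above the highest input library, but by little, and the log2 fold change was 0.30 ± 0.06 (SE; edgeR, adjusted p = 0.000268). The 6 pools were close together, between 0.22 and 0.37. Mapt rose by about as much as the median glutamate neuron marker did, which was 0.23.

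Because a ratio of 2 genes in the same library needs no scaling between libraries, Mtap2 was also set against Mapt directly. Per kb of exon, Mtap2 had 2.42 to 3.03 times the counts of Mapt in the 6 input libraries and 1.05 to 1.23 times in the 6 TRAP libraries. The log2 ratio was lower in TRAP by -1.27 ± 0.12 (mean difference ± SD over 6 pools; exact sign-flip test, two-sided, p = 0.0312). The ratio of Mtap1b to Mtap1a, by contrast, was 1.53 to 1.72 in input and 1.57 to 2.09 in TRAP, a mean log2 difference of 0.14 ± 0.21 (SD, n = 6 pools) that went in both directions among pools (from -0.13 to 0.45; exact sign-flip test, p = 0.188).

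Dcx, the mark of newborn neurons, was the rarest member and was lower in TRAP. Dcx (ENSMUSG00000031285.7, chromosome X from 140290385 to 140367854, minus strand) had 35.5, 28.9 and 32.3 CPM in WT input and 31.8, 37.2 and 39.8 in KO input. In TRAP it had 26.6, 12.3 and 14.4 CPM in WT and 18.2, 19.5 and 18.6 in KO. No TRAP library reached the lowest input library, although WT TRAP 1 came near, and Dcx fell by 0.89 (SE 0.164; edgeR, adjusted p = 7.32e-05) on the log2 scale. Of the 9 matched genes listed as markers of immature granule neurons and their precursors, 5 could be tested. Prox1 (-3.12) and Sox2 (-2.42) were lower in TRAP, both within the range of the astrocyte markers (-3.65 to -1.74). Neurod1 (0.41) was higher, and Sox11 (-0.34) and Calb2 (0.35) were not called. Eomes and Neurog2 could not be tested and were at most 0.244 and 2.36 CPM in TRAP. Whether the listed genes are confined to immature cells was not tested. The list summed to 133 to 254 CPM in TRAP and 213 to 322 CPM in input, and the part of these markers in the result for Dcx was not tested.

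All 3 stathmins had higher mean levels in TRAP, and the membrane-anchored pair passed the test. Stmn3 (ENSMUSG00000027581.11, chromosome 2 from 181041164 to 181049205, minus strand) had 558, 525 and 522 CPM in WT input, 511, 607 and 452 in KO input, 851, 1006 and 907 in WT TRAP and 803, 877 and 737 in KO TRAP. Stmn2 (ENSMUSG00000027500.8, chromosome 3 from 8509527 to 8561604, plus strand) had 384, 412 and 415 CPM in WT input, 363, 405 and 366 in KO input, 544, 548 and 683 in WT TRAP and 506, 479 and 464 in KO TRAP. For both, every TRAP library was above every input library. Stmn3 rose by a log2 fold change of 0.70 ± 0.07 (SE; edgeR, adjusted p = 1.01e-08), more than 95.8% of all genes tested, and Stmn2 by 0.45 ± 0.07 (adjusted p = 6.1e-06).

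Stmn1 was less steady. Stmn1 (ENSMUSG00000028832.5, chromosome 4 from 134024235 to 134029758, plus strand) had 309.8, 202 and 255 CPM in WT input and 177, 237 and 176 in KO input, against 377, 240.1 and 299 in WT TRAP and 275, 228 and 276 in KO TRAP. The groups overlapped, and 5 of 6 pools were higher in TRAP, with KO pool 3 at -0.06. The log2 fold change of 0.33 ± 0.13 (SE) missed the threshold (edgeR, adjusted p = 0.0518), and passed it with the pool as a block (0.33, adjusted p = 0.00157), without WT replicate 1 (0.33, adjusted p = 0.0101), without WT replicate 2 (0.33, adjusted p = 0.00937) and without KO replicate 3 (0.46, adjusted p = 0.00906). It also passed by DESeq2 (0.32, adjusted p = 0.0235), whereas leaving out WT replicate 3, KO replicate 2 or KO replicate 4 gave edgeR adjusted p of 0.121, 0.154 and 0.170. An annotated miRNA gene on the same strand, AL669982.1, lies over 66 bases (3.43%) of the Stmn1 exons. Within libraries, Stmn1 had 0.209 to 0.335 times the counts of Stmn3 per kb in input and 0.144 to 0.267 times in TRAP, lower in TRAP in 6 of 6 pools by a mean log2 difference of -0.37 ± 0.29 (SD; exact sign-flip test, p = 0.0312).

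The 2 β-tubulins moved apart. Tubb3, the neuron-specific isotype (ENSMUSG00000062380.3, chromosome 8 from 125935324 to 125945915, plus strand), had 238, 202 and 229.9 CPM in WT input, 201, 223 and 191 in KO input, 338, 321 and 386 in WT TRAP and 327, 349 and 294 in KO TRAP. Tubb2b, an isotype prominent in developing brain (ENSMUSG00000045136.5, chromosome 13 from 34218877 to 34222223, minus strand), had 102, 83.6 and 77.4 CPM in WT input, 68.6, 100.2 and 80.9 in KO input, 60.8, 70.7 and 40.2 in WT TRAP and 32.7, 52.1 and 57.0 in KO TRAP. Tubb3 was higher in each TRAP library than in any input library, with a log2 fold change of 0.65 ± 0.07 (SE; edgeR, adjusted p = 7.87e-08). Tubb2b was lower in 6 of 6 pools, with a log2 fold change of -0.71 ± 0.15 (adjusted p = 0.000873), but WT TRAP 2 exceeded the lowest input library.

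Tubb2a, looked at because of its likeness to Tubb2b and chosen after its values were seen, rose in TRAP by 0.85 ± 0.09 (SE; edgeR, adjusted p = 2.91e-08). Its near twin therefore changed in the opposite direction. Of the counts on both genes together, Tubb2b took 14.0% to 17.7% in input libraries and 4.39% to 7.18% in TRAP libraries. The sum of both genes was higher in TRAP in 6 of 6 pools, by a mean of 0.70 on the log2 scale (from 0.46 to 0.96; exact sign-flip test, two-sided, p = 0.0312). Most counts of that sum were on Tubb2a, whose rise had been seen, so its direction was largely set beforehand and tells nothing of Tubb2b. The fall of Tubb2b is a value of the counts placed on that gene. How reads from the shared stretches of both genes were placed was not tested.

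**Figure D2:**
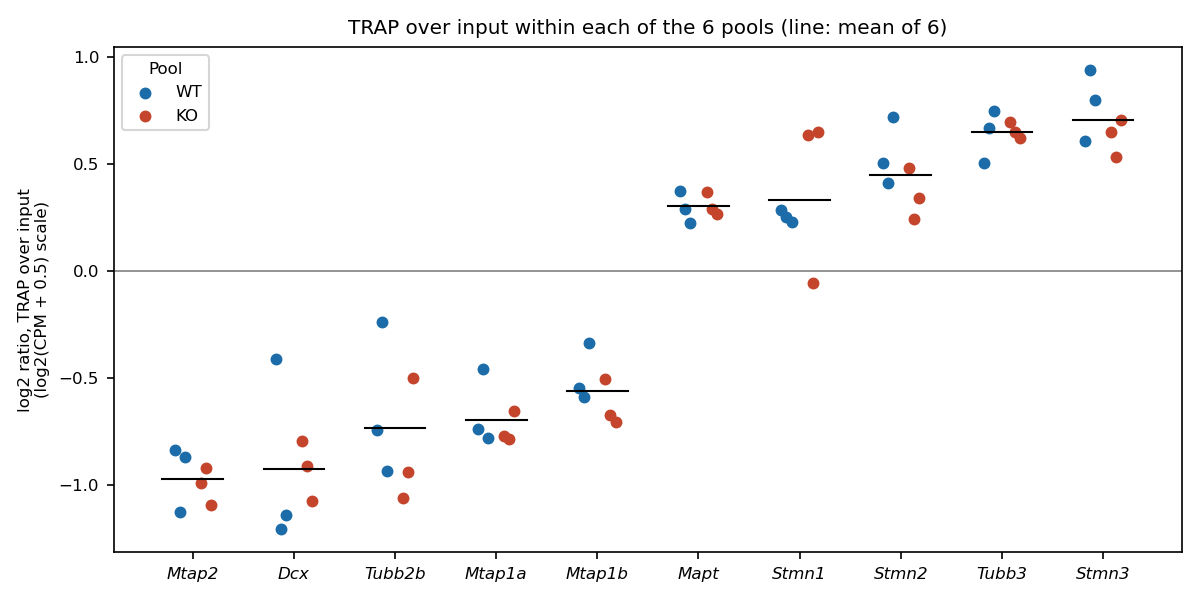
The log2 ratio of TRAP to input within each pool, on the log2(CPM + 0.5) scale, for the 10 genes ordered by their mean (line), WT pools in blue and KO pools in red. Pools fell on the same side of 0 for 9 of the 10 genes, the exception being KO pool 3 for Stmn1, and ratios ran from -1.21 for Dcx to 0.94 for Stmn3.

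The split was there in each genotype. In WT alone 4 members were called higher (11.8% of 12426 genes were) and 5 lower (13.1% were), and in KO alone 5 were called higher (13.2% of 12463 genes) and 5 lower (15.9%), Stmn1 being the additional one (0.39, adjusted p = 0.0184). By edgeR, Stmn1 was not called in KO in a fit of all 12 libraries (0.40, adjusted p = 0.129). Nor was it without KO replicate 2 (0.27, adjusted p = 0.212) or KO replicate 4 (0.27, adjusted p = 0.274). Without WT replicate 1, whose input library stood apart, 5 members were called higher and 5 lower over both genotypes, and 3 higher and 4 lower in WT alone. Leaving out other replicates, except KO replicate 3, gave fewer calls within a genotype. Without WT replicate 3, 2 members were called higher and 3 lower in WT, with Mapt, Stmn2, Tubb2b and Dcx uncalled. Without KO replicate 2 or without KO replicate 4, 2 were called higher in KO. No direction changed.

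The glutamate neuron markers were themselves higher in TRAP, as given above. When libraries were instead scaled on 9 glutamate neuron markers, an alternative chosen after seeing the data, the median of all genes moved by -0.25 on the log2 scale. On that scale Mapt (0.05, adjusted p = 0.561) and Stmn1 (0.08, adjusted p = 0.673) were not called, Stmn2 (0.21), Stmn3 (0.46) and Tubb3 (0.40) stayed higher, and the 5 lower members were lower still, from -0.81 for Mtap1b to -1.22 for Mtap2.

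Exon length moved with these ratios. The members called lower, apart from Tubb2b, have exons of 12.1 to 16.4 kb, and those called higher 1.16 to 7.53 kb. Among all genes tested, the median log2 fold change of TRAP over input was 0.16 for the 2658 genes below 2 kb, 0.04 from 2 to 5 kb, -0.14 from 5 to 10 kb and -0.32 for the 708 genes of 10 kb or more, of which 53.8% were called lower. All 10 members lay further from 0 than the median of their own length class, on the same side or, for Mapt and Tubb2b, on the opposite one: Mtap2 was 0.65 below its class median, Dcx 0.57, Mtap1a 0.37 and Mtap1b 0.24, while Tubb2b, with 1.92 kb, was 0.87 below and Mapt 0.44 above. The part of length in the members' ratios was not tested.

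**Figure D3:**
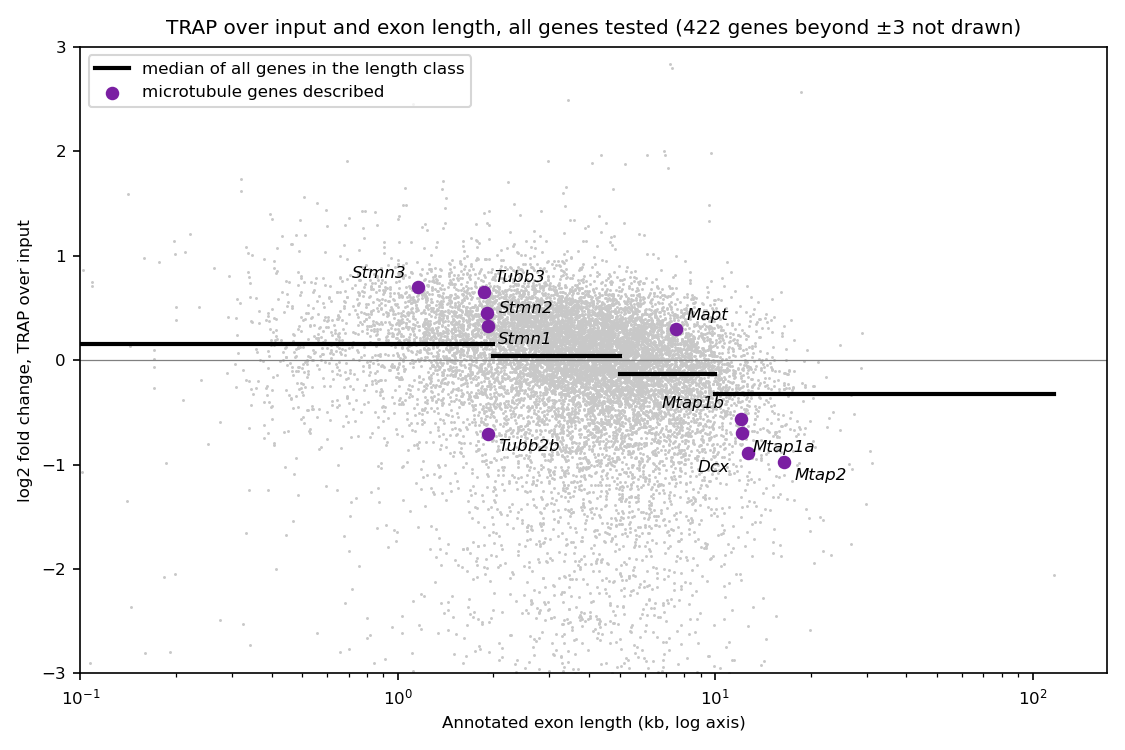
Log2 fold change of TRAP over input against annotated exon length (kb, log axis) for all genes tested (grey), with the median of each length class (black bars) and the 10 microtubule genes (purple). Class medians fall from 0.16 to -0.32 with length, and Mtap1a, Mtap1b, Mtap2 and Dcx lie below the bar of the longest class while Tubb2b lies far below that of the shortest.

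Other genes of the microtubule system were taken from 5 lists, whose counts are to be read against the 19.6% of all genes called higher and the 22.5% called lower. Among other tubulins, 9 of 13 tested were called higher in TRAP and none lower, with a median log2 fold change of 0.51, led by Tubb5 (0.85 ± 0.06, SE; 822 to 1000.4 CPM in TRAP and 454 to 562 in input) and Tuba1a (1.00 ± 0.08; 494 to 707 and 278 to 335 CPM), the main neuronal α-tubulin. Of the others, Tubd1 (-0.85, edgeR adjusted p = 0.0671) and Tubb6 (-0.69, adjusted p = 0.256) had values below 0 that did not pass the test. Read placement between tubulin genes is uncertain for these too.

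Of 37 other microtubule-binding proteins, 17 were higher and 6 lower (median 0.23). Mapre3 (0.63 ± 0.06, SE), a plus-end binding protein, and Mtap7d1 (0.56 ± 0.07) were among the higher, and Nde1 (-3.28 ± 0.37), a dynein partner of dividing cells, fell from 11.1 to 16.6 CPM in input to at most 2.66 CPM in TRAP. Of 22 genes for tubulin folding, modification and severing, 6 were higher, among them the folding cofactors Tbcb (0.61 ± 0.09) and Tbcc (0.63 ± 0.12), and 3 lower, among them the tubulin polyglutamylase Ttll5 (-0.82 ± 0.11), with a median of 0.11, so that the share called higher was not far from that of all genes.

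Motors and kinases were mostly higher. Of 26 kinesin and dynein genes, 15 were higher and 6 lower (median 0.30): the dynactin subunits Dctn1 (0.78 ± 0.06, SE) and Dctn3 (0.78 ± 0.09) rose, and Kif1c (-2.30 ± 0.14) and the axonal kinesin heavy chain Kif5a (-1.20 ± 0.08; 883 to 982 CPM in TRAP and 1638 to 2649.7 in input) fell. Of 21 kinases and phosphatases that act on microtubule proteins, 15 were higher and none lower (median 0.26), with Mark2 (0.49 ± 0.09), a kinase of tau and its relatives, and Ppp2r1a (0.42 ± 0.07), a scaffold of the phosphatase PP2A, first by p-value among those whose TRAP and input libraries did not overlap. Ppp2r1a was not called on the scale of the glutamate neuron markers (0.17, adjusted p = 0.0842). Each list thus had a positive median beside the -0.01 of all genes. The glutamate neuron markers had a median of 0.23, and scaling on them moved the median of all genes by -0.25. Medians of the lists on that scale were not computed.

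**Figure D4:**
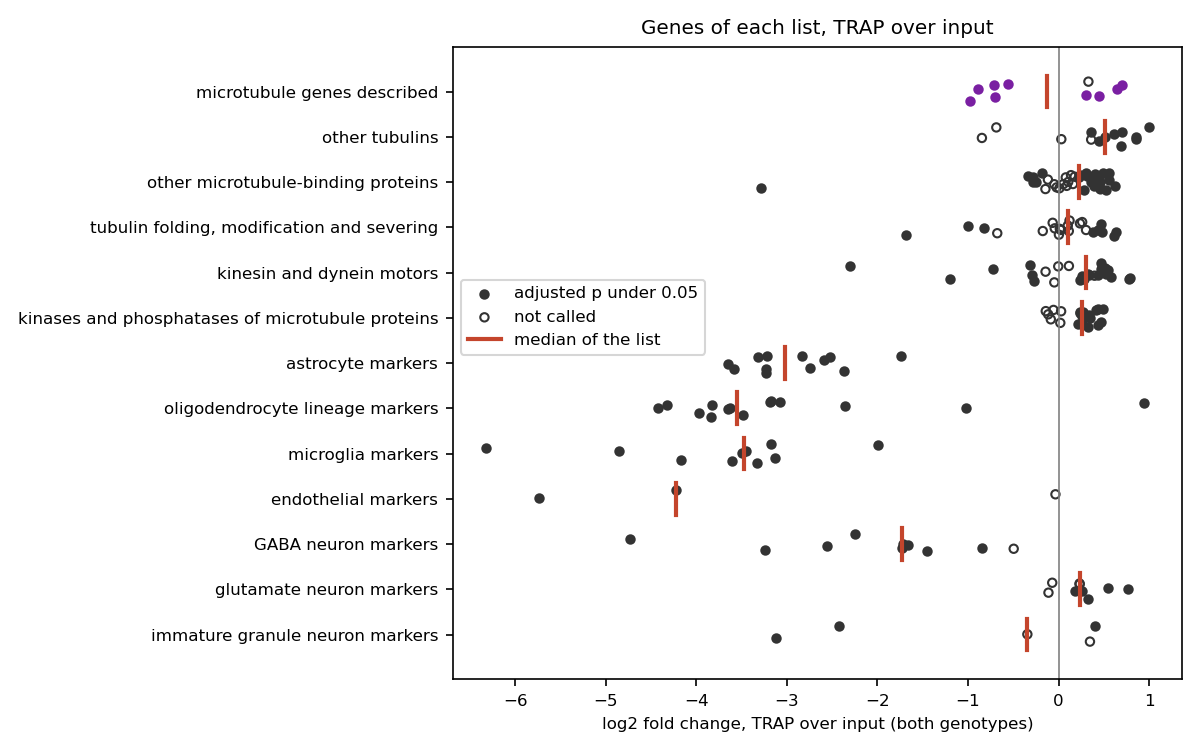
Log2 fold change of TRAP over input for the tested genes of each list (filled: adjusted p under 0.05; open: not called; red bar: median of the list). The microtubule lists lie mostly between -1 and 1 with positive medians, the 10 genes described are split on both sides of 0, and glial markers lie far to the left.

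By their profiles over the 12 libraries, the tested genes other than the 10 members that were nearest to Stmn3, by the Euclidean distance of centred log2(CPM + 0.5) values, were Ptov1 (distance 0.250), Atp5o (0.277), a subunit of mitochondrial ATP synthase, and Itpka (0.299), a kinase of inositol trisphosphate found in dendritic spines. The median distance of these 13204 genes to Stmn3 was 1.77. Nearest to Mtap2 were Uty (0.257), Spna2 (0.269), which encodes brain α-spectrin, and Syne1 (0.273), which encodes a very large nuclear envelope protein, with a median over the same genes of 2.17.

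The comparison of KO with WT asks whether loss of FosB in NAc-projecting vHPC neurons changed these mRNAs. No member was called in TRAP libraries, where 0.0682% of 11727 genes were called by the edgeR quasi-likelihood test at a Benjamini-Hochberg adjusted p under 0.05, and the lowest adjusted p of a member was 0.576. DESeq2 called none either. At an unadjusted p under 0.05 there were 3 members, all lower in KO: Stmn2, Mtap1b and Stmn3, where 6.05% of all genes tested had such a p. The members' log2 fold changes ran from -0.29 to 0.08, with 7 of 10 below 0 and a median of -0.15, beside a median of 0.00 and 50.5% below 0 for all genes. In input libraries too, 7 of 10 were below 0, with a median of -0.04, beside 50.0% of all genes.

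Stmn2 had the lowest p. Its KO TRAP libraries, at 464 to 506 CPM, did not overlap the WT TRAP libraries, at 544 to 683 CPM, and the log2 fold change was -0.29 ± 0.10 (SE; 95% interval -0.49 to -0.10; edgeR, unadjusted p = 0.00527, adjusted p = 0.576). Mtap1b did not overlap either, at 2811 to 2991 CPM in KO and 3029 to 3575 CPM in WT, with -0.19 ± 0.08 (95% interval -0.35 to -0.03; unadjusted p = 0.0209, adjusted p = 0.767). For each, the exact permutation test of 3 against 3 gave p = 0.1, the smallest it can give. Groups did not overlap for 2 of 10 members, against 11.9% of all genes.

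The high library WT TRAP 3 weighed on both: without WT replicate 3, Stmn2 was at -0.18 (unadjusted p = 0.0789) and Mtap1b at -0.13 (unadjusted p = 0.138). Mtap1b was at -0.17 without WT replicate 1 (unadjusted p = 0.0559) and at -0.16 without KO replicate 4 (unadjusted p = 0.0972). Stmn3 overlapped between the genotypes and had -0.19 ± 0.09 (SE; 95% interval -0.38 to -0.01; edgeR, unadjusted p = 0.0378, adjusted p = 0.809). It was at -0.12 without WT replicate 2 (unadjusted p = 0.22) and at -0.13 without KO replicate 4 (unadjusted p = 0.21), and DESeq2 gave an unadjusted p of 0.0643. The other members' values were -0.11 for Mtap1a, 0.02 for Mtap2, 0.08 for Mapt, -0.24 for Stmn1, -0.11 for Tubb3, -0.28 for Tubb2b and 0.07 for Dcx. The 95% intervals lay between -0.28 and 0.25 for Mtap1a, Mtap2 and Mapt, and were widest for Dcx (-0.51 to 0.65) and Tubb2b (-0.75 to 0.20).

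In input libraries, no member was called either (0.0312% of 12816 genes were called; DESeq2 called no member). Stmn1 alone had an unadjusted p under 0.05, with -0.37 ± 0.15 (SE; 95% interval -0.70 to -0.05; edgeR, unadjusted p = 0.0281, adjusted p = 1.00), where 2.89% of all genes did, and its groups overlapped. That value was -0.21 without WT replicate 1 (unadjusted p = 0.167) and -0.53 without KO replicate 3 (unadjusted p = 0.00369). Stmn2 was at -0.09 ± 0.10 and Mtap1b at -0.05 ± 0.09 in input. The difference of the KO effect between TRAP and input was not called for any member (0.00757% of 13214 genes were called), none had an unadjusted p under 0.05, and it was -0.20 for Stmn2 (95% interval -0.48 to 0.08) and -0.14 for Mtap1b (-0.36 to 0.08). An effect particular to TRAP was thus not shown for either gene. No marker of the 7 cell type lists was called between KO and WT in TRAP, but many had too few counts to be tested there: 1 of 10 microglia, 1 of 8 endothelial, 9 of 14 oligodendrocyte lineage and 5 of 9 immature granule neuron markers were tested. In TRAP the GABA neuron markers summed to 431, 328 and 291 CPM in WT and to 653, 191 and 182 CPM in KO, so that KO TRAP 2 stood far above, and the other KO libraries below, all WT libraries. Without KO replicate 2, the KO effect in TRAP was -0.33 for Stmn2, -0.20 for Mtap1b and -0.19 for Stmn3 (edgeR, unadjusted p = 0.00785, 0.0430 and 0.0842). The part of such markers in the members' values was not tested.

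**Figure D5:**
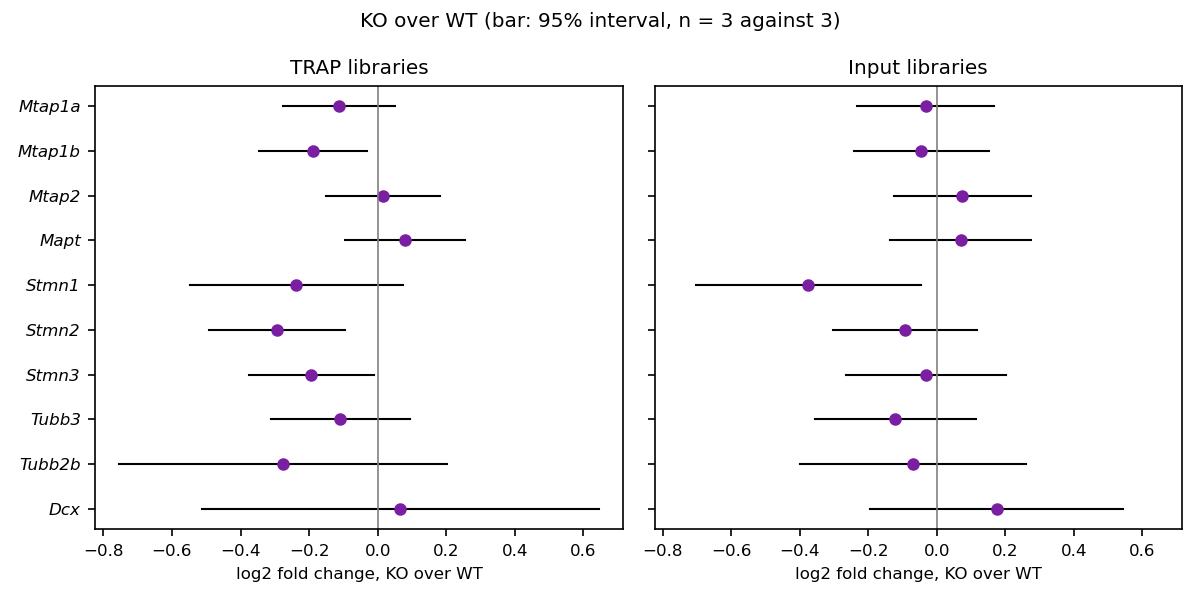
Log2 fold change of KO over WT with its 95% interval for the 10 genes, in TRAP libraries (left) and input libraries (right). In TRAP the intervals of Mtap1b, Stmn2 and Stmn3 lie below 0 before adjustment, and in input that of Stmn1 does.

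Stmn1 shares sequence with its copy Gm11223, which was looked at for that reason, after its values were seen. Whether reads of one were counted on the other was not tested. Gm11223 had 51.5, 26.9 and 38.1 CPM in WT TRAP and 96.5, 101 and 80.1 in KO TRAP, and 30.9, 28.3 and 31.4 in WT input and 48.9, 50.1 and 47.4 in KO input. It was higher in every KO library than in every WT library of its kind, and was called in TRAP (1.24 ± 0.19, SE; edgeR, adjusted p = 0.0109) but not in input (0.70 ± 0.16, adjusted p = 0.497). Of the counts on both genes, Stmn1 took 87.7% to 90.9% in the 6 WT libraries and 69.4% to 82.6% in the 6 KO libraries. The sum of both genes was higher in TRAP than in input in 6 of 6 pools, by a mean of 0.39 on the log2 scale (from 0.19 to 0.71; exact sign-flip test, two-sided, p = 0.0312). It differed between KO and WT by 0.06 on the log2 scale in TRAP (exact permutation test of 3 against 3, two-sided, p = 0.8) and by -0.21 in input (p = 0.3).

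No gene of the 5 microtubule lists was called between KO and WT, in TRAP or input, by edgeR's adjusted p. The 3 with the lowest p in TRAP were the tau kinase Mark4 (157 ± 18.1 CPM in WT and 115 ± 8.57 in KO, SD, n = 3; log2 fold change -0.45 ± 0.12, SE; adjusted p = 0.293), the PP2A catalytic subunit Ppp2ca (739 ± 28.9 and 629.9 ± 34.8 CPM; -0.23 ± 0.08; adjusted p = 0.728) and the β-tubulin Tubb4 (1245 ± 60.3 and 1078 ± 47.9 CPM; -0.21 ± 0.08; adjusted p = 0.728). All 3 values were below 0, as they were for 9 of the 12 other tubulins tested, Tubb4 included, and for 50.5% of all genes. In input libraries 9 of 13 other tubulins were below 0.

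FosB is a component of the transcription factor AP-1, so the letters of its site were looked for upstream of the members. RefSeq promoters (GRCm38.p6, 250 bases before the start) were found for 6 members, Mtap1a, Mtap1b, Mtap2, Stmn3, Tubb3 and Dcx, the last with 2 starts. None of these windows held TGACTCA or its reverse complement TGAGTCA, which 4.46% of 32851 promoters of that length hold. The GC box GGGCGG, searched on both strands, was present 5 times for Mtap2, 4 times for Mtap1a, 2 times for Tubb3, 1 time for Mtap1b, and 32.7% of all promoters hold it.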

How the data were processed

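Circuit-specific TRAP and input RNA of vHPC punches was sequenced from 6 pools of mice (12 libraries). The authors deposited raw counts of reads per gene for each library. Reads had been aligned by TopHat (mm9) and assigned to Gencode vM1 genes by HTSeq-count, leaving out reads with more than 1 alignment; tool versions and the strand setting were not given in the sources used here. Unique reads outside genes (20.6% to 27.1%) and those ambiguous between genes (2.11% to 2.56%) stayed out of library sizes.

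The test was that of edgeR 4.0.16 in R 4.3.3 (default filter by group, TMM, robust quasi-likelihood test) over all genes, with Benjamini-Hochberg adjustment and a threshold of 0.05; DESeq2 1.42.0 was an alternative. SE is the log2 fold change divided by the square root of F. TRAP was compared with input over all 12 libraries and in each genotype, KO with WT in TRAP and in input, and the difference of the KO effect as an interaction. CPM are TMM-normalized over 12 libraries. Single values were compared by exact permutation of 3 against 3 pools (smallest p 0.1) or sign flips over 6 pools, two-sided, on log2(CPM + 0.5). Scripts were tested on simulated data.

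TRAP and input libraries that share a number in the labels were taken to come from the same mice, so the pool was a block in an alternative fit. Their deviations from the group means correlated by 0.058 to 0.106. The sign-flip tests over pools rest on this pairing. Pools of mice were the replicates.

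The members and gene lists were chosen with earlier results of these data known. Named from each list were up to 2 genes per direction with the smallest p among those called whose TRAP and input libraries did not overlap, and the 3 with the smallest p between KO and WT in TRAP. Of the listed genes, 2 matched more than 1 identifier and were left out. Shared stretches were found with minimap2 2.31 in mm9. Tried as alternatives were other normalizations and filters, DESeq2, no robust dispersion, the pool or replicate number as a block, a fit of all libraries, a pseudocount of 0.1, leaving out mitochondrial genes and leaving out each pool.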

Additional observations from a re-analysis of the deposited data

How the results depend on the processing

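Over both genotypes, the members called higher in TRAP numbered 3 to 5 and those called lower 5 under all alternatives; no member reversed in TRAP against input. Scaled on glutamate neuron markers, 2 members were called higher in WT and 2 in KO. Leaving out a replicate gave 2 to 3 members higher and 3 to 4 lower in WT, 2 to 5 higher in KO, 1289 to 3243 genes called in WT and 1982 to 3181 in KO. Blocked by pool (the paired fit), Stmn1 was called (adjusted p = 0.00157), and no other call of a member changed. No alternative called a member between KO and WT.

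Between KO and WT, 8 genes were called in TRAP, 41 with no filter beyond 1 count, 18 by DESeq2 and 5 to 20 leaving out a replicate. In input 4 were called, 19 with no filter beyond 1 count, 8 by DESeq2, 7 in a fit of all 12 libraries and 1 to 5 leaving out a replicate. The replicate numbers 2 and 3 are shared by WT and KO pools of different mice; with that replicate number as a block 20 genes were called in input and 6 in TRAP, and same-numbered deviations correlated by -0.07 to 0.003. Under that block the KO effect was -0.31 for Stmn2 (unadjusted p = 0.0369), -0.14 for Mtap1b (0.310) and -0.19 for Stmn3 (0.182) in TRAP, and -0.14 for Stmn1 (0.205) in input. The difference of the KO effect had 1 gene called, 0 without robust dispersion and 0 to 1 leaving out a replicate.

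Small KO effects of members that were not called changed sign. Leaving out 1 replicate at a time gave -0.0190 to 0.0846 for Mtap2 and -0.136 to 0.500 for Dcx in TRAP (below 0 for Mtap2 without WT replicate 1, WT replicate 2 or KO replicate 3, and for Dcx without WT replicate 2 or WT replicate 3). In input it gave -0.0872 to 0.0161 for Mtap1a, -0.0857 to 0.00950 for Mtap1b, -0.151 to 0.0632 for Stmn3 and -0.223 to 0.0580 for Tubb2b. With the replicate block in input, Mtap2 was at -0.0134, Stmn3 at 0.0930 and Tubb2b at 0.0523. The cause was not tested. With 3 pools per group, the 95% intervals given bound how precisely each KO effect was measured; no detection limit was computed.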
